A study of Drosophila melanogaster with 2 samples.

Results

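Glycolysis genes were examined for occupancy by the GFP-tagged product of CG15812 in whole Drosophila melanogaster embryos. The 10 genes, Hex-A, Pgi, Pfk, Tpi, Gapdh1, Gapdh2, Pgk, Eno, PyK and Ldh, were chosen by symbol among 13945 protein-coding genes. Earlier results of these data were known when they were chosen. Pfk here is phosphofructokinase. The labels also call the tagged factor pfk, but that name refers to CG15812, a different gene. The data are chromatin immunoprecipitation followed by sequencing (ChIP-seq) from 2 biological replicates that form 1 group. Both are embryos 0 to 24 h old, males and females pooled, of a transgenic CG15812-GFP line whose tag is at the C-terminus. No source used here names the promoter that drives the tagged gene. A whole embryo of this age range mixes many cell types and stages, so a region may be occupied in few of them. The sample descriptions call them input controls, whereas the assay title and antibody entry mark them as immunoprecipitated, and they were treated as such.

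Glycolysis splits glucose into pyruvate and yields ATP and NADH. Hexokinase, phosphoglucose isomerase and phosphofructokinase prepare the sugar, triosephosphate isomerase interconverts the products of its cleavage, and the enzymes from glyceraldehyde-3-phosphate dehydrogenase to pyruvate kinase harvest the energy. Lactate dehydrogenase regenerates NAD+ from NADH. In Drosophila, transcription of these genes is known to rise during mid-embryogenesis under the nuclear receptor ERR, ahead of larval growth.

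Each region in the peak lists has a summit, the position of highest signal, and a signal value in the authors' own units, which was ranked only within a list. Each replicate and the pool of both has a relaxed list of 30000 regions that includes background. The authors' shorter list, 2886 peaks, was thresholded by irreproducible discovery rate (IDR), which asks that replicates rank a peak alike. Lowest and median pooled signals in it were 128 and 202. Genes are called bound where a peak of that shorter list has its summit 1 kb or less from an annotated transcription start site (TSS). Read depth is unknown, and both replicates share 1 control alignment. The tagged gene itself had a promoter peak with a signal of 921 in replicate 1 and 885 in replicate 2. Both replicates belong to 1 condition, so the values that follow are descriptions with no test between conditions.

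Of the 10 glycolysis genes, 5 were bound: Gapdh2, Pgk, Eno, Hex-A and Ldh. The background share was 16.0% of all protein-coding genes (2225 of 13945). It was 27.9% among the 3607 genes with 2 to 5 distinct TSSs, the range of these 10 genes. The bound genes held 9 IDR summits, of which Pgk had 4 and Eno 2. The unbound genes were Pgi, Pfk, Tpi, Gapdh1 and PyK, and each of them had 2 TSSs, against 2 to 5 in the bound genes.

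The sequences at the summits are shown because those of 3 bound genes were low in G+C beside most IDR promoter summits. The first 4 lines give the summit base and 50 bp to each side, on the strand of the gene and 5′ to 3′, from the Release 6 assembly (dm6). Capitals mark matches to TATAAA on either strand, the one motif of those searched that occurs in these 4 windows.
Gapdh2, chrX:15867926-15868026, plus strand: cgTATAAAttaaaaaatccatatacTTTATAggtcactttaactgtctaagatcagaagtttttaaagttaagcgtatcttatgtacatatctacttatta
Hex-A, chrX:9585458-9585558, plus strand: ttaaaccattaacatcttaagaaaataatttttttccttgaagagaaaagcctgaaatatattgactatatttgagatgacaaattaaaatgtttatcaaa
Ldh, chr3L:6262850-6262950, minus strand: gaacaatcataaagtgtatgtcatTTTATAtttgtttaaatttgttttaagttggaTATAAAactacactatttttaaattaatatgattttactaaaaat
Pgk, chr2L:2750299-2750399, minus strand: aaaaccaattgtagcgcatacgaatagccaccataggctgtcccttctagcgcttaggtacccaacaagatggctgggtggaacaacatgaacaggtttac
For Eno and for the highest Pgk summit, 29 bp are given, with the summit base in capitals.
Eno, chr2L:1727804-1727832, minus strand: tgtcttggaccgctTcagttttcttgagg
Eno, chr2L:1728006-1728034, minus strand: ccacacttagagatGggcaaaaatacatc
Pgk, chr2L:2752408-2752436, minus strand: gtgtgtggtgcagtCactctgtggcgttc

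The summit windows of Ldh, Hex-A and Gapdh2 were rich in A and T. The G+C content of these windows was 16.8% at Ldh, 21.8% at Hex-A and 24.8% at Gapdh2. The median over 2045 IDR promoter summits was 44.6%, and 0.391%, 1.86% and 3.91% of those windows had as little G+C or less. Sequence at that distance from a TSS was itself lower in G+C. Windows centred 150 bp upstream of all TSSs of protein-coding genes had a median of 36.6%, and 1.58%, 7.45% and 14.5% of them were at or below the values of Ldh, Hex-A and Gapdh2. The 4 Pgk windows lay between 44.6 and 58.4%, and those of Eno at 50.5 and 32.7%, so low G+C was not shared by all bound glycolysis genes.

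**Figure D1:**
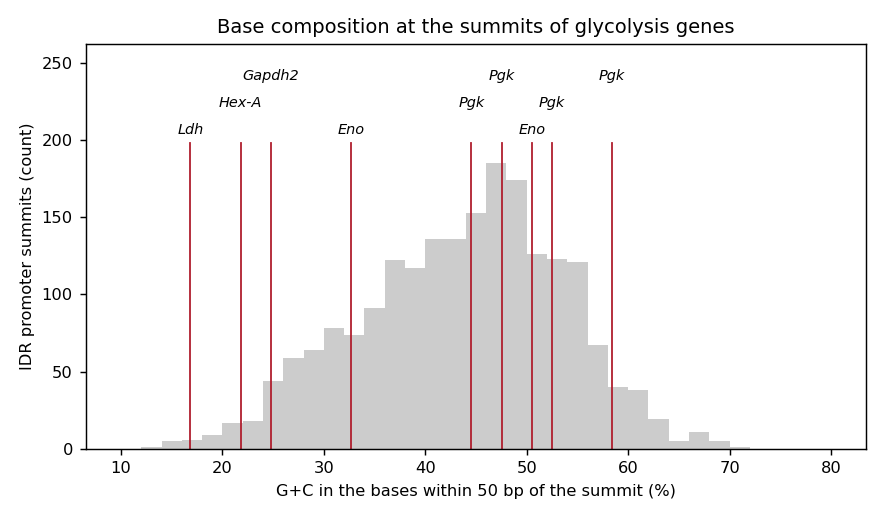
The histogram counts IDR promoter summits by the G+C content (%) of the bases within 50 bp of the summit, and each red line is 1 of the 9 IDR summits of glycolysis genes. Ldh (16.8%), Hex-A (21.8%) and Gapdh2 (24.8%) sit in the low tail, while the Pgk windows lie at 44.6 to 58.4%.

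Among the genes of the preparatory steps, Hex-A was bound and Pgi and Pfk were not. Hex-A encodes a hexokinase, which phosphorylates glucose on entry to the pathway (FBgn0001186, dm6 arm X, 9585675 to 9589813, plus strand). Its IDR peak spanned 9585454 to 9585605 in intergenic sequence, and the summit lay 167 bp upstream of the first TSS, with no other gene start within 1 kb. Its signal was 133 in replicate 1 and 144 in replicate 2, and 267 in the pool (rank 1011). The replicates placed the summit differently. That of replicate 2 fell on the IDR summit, and that of replicate 1 lay 73 bp away, with a further replicate 1 summit 37 bp upstream of the TSS (signal 67.8). Replicate 2 also listed summits 918 bp upstream of the first TSS (49.5) and 352 bp downstream of the second (16.5). The latter had no replicate 1 summit within 200 bp.

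Pgi encodes phosphoglucose isomerase, which turns glucose 6-phosphate into fructose 6-phosphate (FBgn0003074, 2R, 8910900 to 8914069, minus strand). Its highest promoter signal was 53.7 in replicate 1 and 30.8 in replicate 2. The replicates disagreed on the place of the highest signal. The replicate 1 value belonged to a summit 546 bp upstream, in the 5' UTR of the neighbouring gene lin, with no replicate 2 summit within 200 bp. The replicate 2 summit lay 84 bp upstream of a Pgi TSS, and replicate 1 had a second summit within 200 bp of it, 55 bp downstream of that TSS (signal 41.9).

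Pfk encodes phosphofructokinase, the committed and most tightly regulated step (FBgn0003071, 2R, 10109740 to 10117457, plus strand). Its highest promoter signal was 38.5 in replicate 1 and 38.9 in replicate 2, at rank 8130 and 6406. The values were close, but these highest summits were not the same. That of replicate 1 lay 32 bp upstream of the second TSS and that of replicate 2 lay 525 bp upstream of it, where replicate 1 had none within 200 bp. At the second TSS both replicates had a summit, since replicate 2 also listed one 30 bp downstream (signal 34.4), within 200 bp of that of replicate 1. The pooled list held 5 summits within 1 kb of the Pfk TSSs, with signals from 35.2 to 77.8, each below the lowest IDR signal. An IDR peak just past the 3' end of Pfk (summit 10117606, signal 144) lay 88 bp upstream of the TSS of the next gene, dmpd, and 6736 bp from the nearest Pfk TSS.

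Tpi, which encodes triosephosphate isomerase, gave the plainest disagreement in listing (FBgn0086355, 3R, 30132981 to 30134599, minus strand). Replicate 1 listed a summit 41 bp downstream of a TSS with a signal of 53.5 (rank 4933), whereas replicate 2 listed none within 1 kb. The lowest signal in the replicate 2 list was 15.9. The pooled summit there had a signal of 57.4, little above that of replicate 1 alone. The other 9 genes were in both replicate lists, as were 53.8% of all protein-coding genes. All 10 were in the pooled list and in that of replicate 1, beside 63.2% and 64.2% of all protein-coding genes, and 9 in that of replicate 2, beside 60.9%.

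The paired glyceraldehyde-3-phosphate dehydrogenase genes lay at opposite ends of the range. Gapdh2 (FBgn0001092, X, 15868145 to 15869661, plus strand) had the highest signal of the 10 genes, 386 in replicate 1 and 511 in replicate 2 (897 in the pool, rank 341). Gapdh1 (FBgn0001091, 2R, 7791901 to 7793380, minus strand) had the lowest, 32.1 in replicate 1 and 22.5 in replicate 2 (36.9 in the pool, rank 18493). Gapdh2 was above every other gene of the 10 and Gapdh1 below every other gene listed, in both replicates. The Gapdh2 IDR summit was intergenic, 169 bp upstream of the first TSS, and the replicate summits lay 7 and 2 bp from it. Weaker Gapdh2 summits had none of the other replicate within 200 bp. That of replicate 1 lay 24 bp upstream of the second TSS (signal 21.6). That of replicate 2 lay 805 bp upstream of the first (28.9). The highest Gapdh1 summits were far below the Gapdh2 IDR summit. They lay 16 bp downstream of a TSS in replicate 1 and 214 bp downstream of it in replicate 2, within 200 bp of each other. Replicate 1 alone also listed a summit 321 bp upstream of a Gapdh1 TSS, in a coding exon of PolZ1 (signal 19.0).

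The coding sequences of these paralogs are 88.8% identical over 996 bp, so the uniqueness of the sequence was examined. Of all 36-bp words within 1 kb of a TSS, 99.9% occurred once in the assembly for either gene, as did each word within 200 bp of the Gapdh2 summit. The word length stands in for the read length, which no source used here states. For the other 8 genes each such word within 1 kb of a TSS occurred once.

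Pgk encodes phosphoglycerate kinase, the first step that yields ATP, and had the most IDR summits (FBgn0250906, 2L, 2746880 to 2753068, minus strand). At least 4 IDR summits within 1 kb of a TSS were found at 15 of the 2225 bound genes (0.674%). Pgk has 5 TSSs, and so more windows in which a summit can fall than a gene with 1. Its highest summit had a signal of 278 in replicate 1 and 225 in replicate 2 (482 in the pool, rank 559). That summit lay in a Pgk intron 646 bp downstream of the outermost Pgk TSS and 23 bp upstream of a TSS of Bacc, a gene on the opposite strand. This signal therefore counts for both genes, and its place is nearer to the Bacc start. The second signal, 135 in replicate 1 and 116 in replicate 2, lay 189 bp upstream of the innermost TSS, that of transcript Pgk-RA, within the 5' UTR of a longer Pgk transcript.

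The other Pgk summits were lower. One lay 21 bp upstream of the outermost TSS, that of Pgk-RD, with a signal of 107 in replicate 1 and 67.6 in replicate 2, and it was also 144 bp upstream of a Bacc TSS. The last lay 202 bp upstream of the Pgk-RB start, with a signal of 86.7 in replicate 1 and 60.5 in replicate 2. All 4 were higher in replicate 1, by 0.22 to 0.67 log2, and all had a summit within 64 bp in both replicates. The summit at Pgk-RB, with a pooled signal of 135, was the lowest of the 9 IDR summits. The nearest values outside the threshold were a summit of 114 between Eno and CG31937 and a PyK summit of 106.

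Eno encodes enolase, which makes phosphoenolpyruvate (FBgn0000579, 2L, 1724768 to 1729636, minus strand). Its 2 IDR summits lay 101 and 303 bp upstream of the innermost of its 3 TSSs, that of Eno-RA and Eno-RF. The nearer summit lay in a coding exon of a longer Eno transcript and had a signal of 186 in replicate 1 and 202 in replicate 2 (387 in the pool, rank 691). The farther one was intronic, with a signal of 108 in replicate 1 and 131 in replicate 2. Replicate 2 was higher at both, by a small margin. These summits are 202 bp apart, within the 200 to 800 bp of a sonicated fragment. The outermost TSS had a pooled summit 159 bp upstream with a signal of 114, which did not reach the IDR list. That summit was nearer to a TSS of CG31937, 92 bp upstream of it. Rrp40, which encodes an exosome subunit, has a TSS 914 and 712 bp from the Eno summits and was called bound through them as well.

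PyK encodes pyruvate kinase, the last step of the pathway (FBgn0267385, 3R, 22367536 to 22372746, plus strand). Its highest promoter signal was 66.8 in replicate 1 and 53.8 in replicate 2, at summits 643 and 781 bp upstream of the second TSS in an intron. In the pool it reached 106 (rank 3871), the highest of the unbound genes. PyK also shares its first promoter with Polr3F on the opposite strand, and the pooled summit there (signal 60.3) lay within the 5' UTR of Polr3F. Some weaker summits had none of the other replicate within 200 bp. In replicate 1 they lay 26 bp upstream of the first TSS (signal 17.6) and 171 bp upstream of the second (34.4). In replicate 2 they lay 604 bp upstream of the first (23.6) and 493 bp downstream of the second (17.7).

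Ldh, which encodes lactate dehydrogenase, was bound, but the replicates disagreed (FBgn0001258, 3L, 6259105 to 6262694, minus strand). Its IDR summit lay 206 bp upstream of the outermost TSS, in intergenic sequence, with a signal of 111 in replicate 1 and 52.5 in replicate 2 (164 in the pool). It ranked 1507 in replicate 1 and 3836 in replicate 2. The difference of 1.08 log2 was over 1. A difference over 1 in either direction held for 8.46% of 2860 matched IDR peaks. The replicate 2 value overlapped the range of the unbound genes, 22.5 to 53.8 in that replicate. A second place of disagreement was the inner Ldh promoters, where replicate 2 alone listed summits 172 bp (signal 48.0) and 377 bp (19.3) upstream. A long non-coding RNA gene, lncRNA:CR44522, starts 499 bp from the IDR summit.

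**Figure D2:**
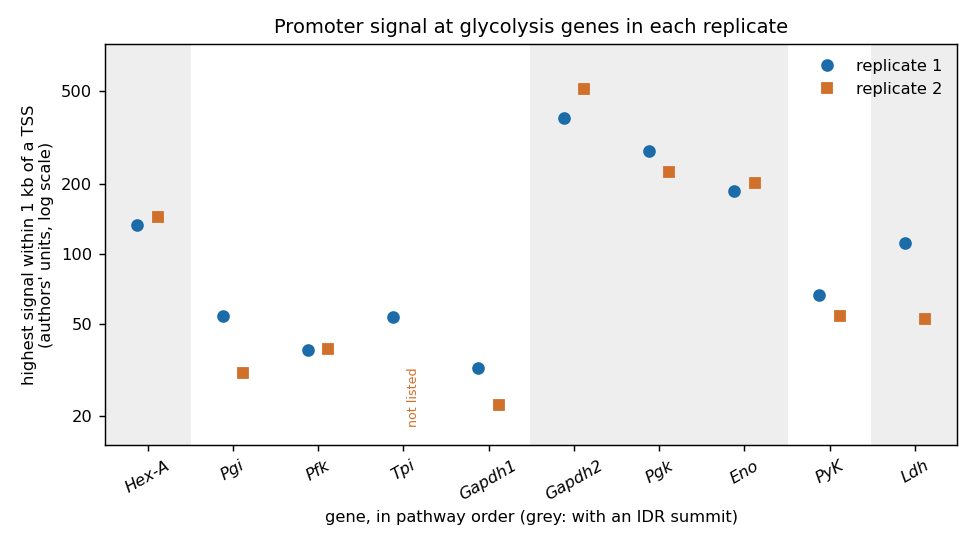
Highest signal within 1 kb of a TSS (authors' units, log axis) for each gene in pathway order, with circles for replicate 1, squares for replicate 2 and grey bands for genes with an IDR summit. Gapdh2 (386 and 511) is highest in both replicates, Ldh differs between them (111 and 52.5) and Tpi is not listed in replicate 2.

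Across the 9 IDR summits of these genes, signal in replicate 1 minus replicate 2 had a median of 0.22 log2 (SD 0.49). Over 2860 IDR peaks with a summit within 200 bp in both replicates it was 0.21 log2 (SD 0.54). Replicate 1 was higher at 5 of the 9 summits and at 70.6% of all matched peaks. The largest difference the other way was at Gapdh2, -0.41 log2. The 9 summits are not independent, since 4 are of Pgk, all higher in replicate 1, and the median is the value of 1 of these. At the highest summit of the other genes, the difference was -0.12 log2 at both Eno and Hex-A and 1.08 log2 at Ldh. It was 0.30 log2 at the highest Pgk summit. At the level of genes, the highest promoter signals of Gapdh2, Pgk, Eno and Hex-A ranked 343, 447, 626 and 926 among 8949 listed protein-coding genes in replicate 1. In replicate 2 they ranked 283, 487, 528 and 700 among 8487, so these 4 genes kept their order in both lists. Ldh ranked 1194 and 2734. The place of Pgk in that order rests on its summit 23 bp upstream of a Bacc TSS. By its next summit (135 in replicate 1 and 116 in replicate 2), Pgk was below Eno in both replicates. It was then above Hex-A in replicate 1 (133) and below it in replicate 2 (144).

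**Figure D3:**
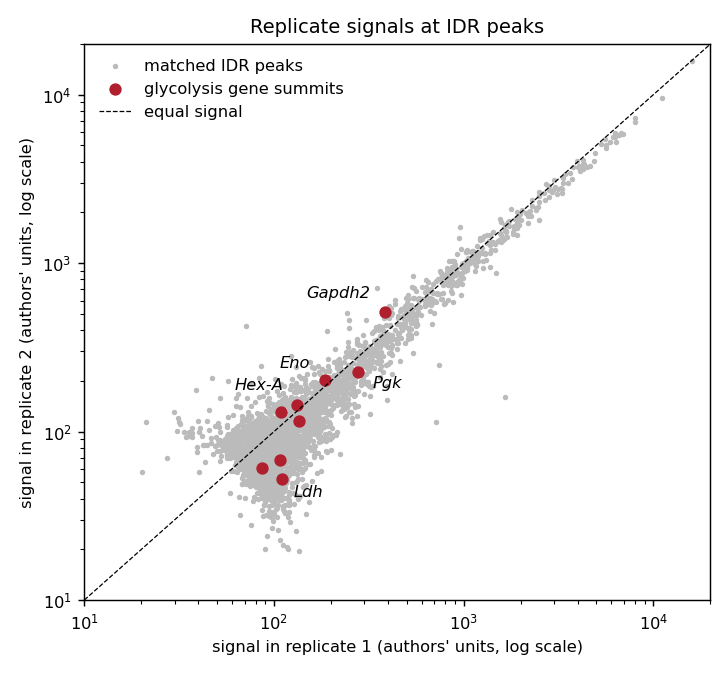
Each grey point is an IDR peak with its signal in replicate 1 and replicate 2 (authors' units, log axes), and red points are the 9 IDR summits of glycolysis genes, labelled at the highest summit of each gene. Most red points lie near the line of equal signal, and Ldh lies below it, at 111 and 52.5.

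Replicates also listed weaker summits that the other lacked. Within 1 kb of the TSSs of the 10 genes, replicate 1 listed 36 summits and replicate 2 listed 34. Of these, 25 in either list (69.4% and 73.5%) had a summit of the other replicate within 200 bp. The shares over all protein-coding genes were 58.6% of 13160 and 63.4% of 12231. Pgk alone held 11 of the replicate 1 summits, 10 of them matched, and 10 of the replicate 2 summits, 9 of them matched. The shares for the 10 genes therefore lean on this 1 gene with 5 TSSs. The unmatched summits with the highest signal were those of Pgi (53.7) and Tpi (53.5) in replicate 1 and of Ldh (48.0) and Pfk (38.9) in replicate 2. The 5 unbound genes had a highest pooled signal from 36.9 to 106, with a median of 70.3. The median over the 6584 listed genes without an IDR summit was 58.3. The 5 bound genes reached 164 to 897, with a median of 387, and the median over all 2225 bound genes was 206. By arm, 14.8% of genes on X were bound (Gapdh2 and Hex-A lie there), 17.0% on 2L (Pgk and Eno), 15.9% on 3L (Ldh), 16.6% on 2R (Gapdh1, Pgi and Pfk) and 14.2% on 3R (Tpi and PyK).

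Summits of the bound genes lay upstream of the TSS more than at it. Of the 9 IDR summits, 8 were upstream of the nearest TSS of the gene and 7 were at least 100 bp upstream, with a median position of -169 bp. Of these 7, those of Gapdh2, Hex-A and Ldh were intergenic. Those of Pgk and Eno lay inside the gene, upstream of an inner TSS but downstream of an outer one. Over 2045 IDR promoter summits, placed by the nearest TSS of any gene, the median was -43 bp (quartiles -122 and 17 bp), and 30.2% lay at least 100 bp upstream. Placed by the nearest TSS of any gene, 7 of the 9 were again at least 100 bp upstream. Several summits belong to 1 gene, so the 9 are not independent.

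**Figure D4:**
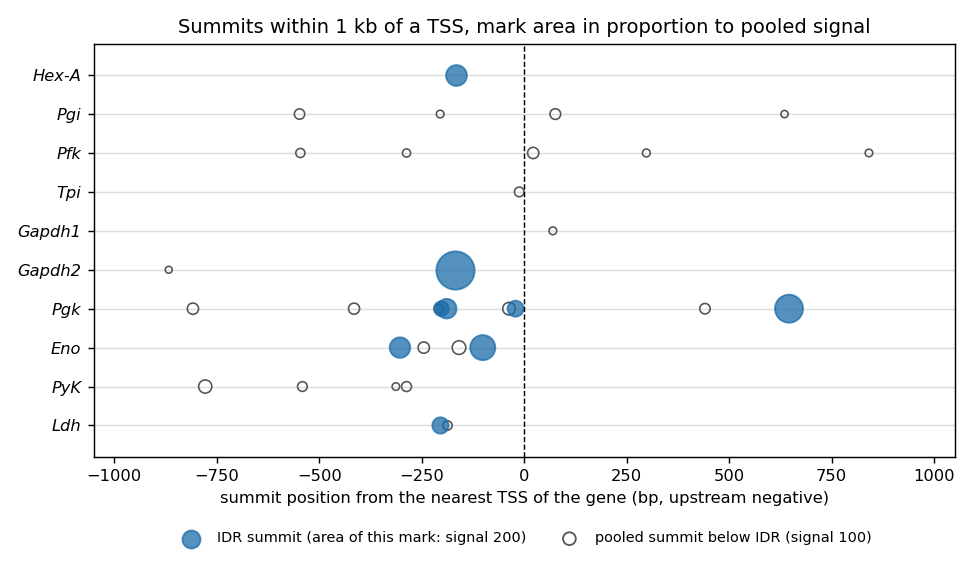
Position of each pooled summit relative to the nearest TSS of its gene (bp, upstream negative), with filled marks for IDR summits, open marks for summits outside the IDR list and mark area in proportion to pooled signal. IDR summits of Hex-A, Gapdh2 and Ldh sit 167, 169 and 206 bp upstream, and the highest Pgk summit lies 646 bp downstream, next to a Bacc start.

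Known motifs were then searched on both strands within 50 bp of each summit. GGAACG, the sequence most enriched at the summits of this factor in an earlier analysis of the same data, was at 0 of the 9 summits. It occurred at 13.8% of 2045 IDR promoter summits and in 2.11% of windows centred 150 bp upstream of TSSs. Within 100 bp it was found once, 83 bp from the Pgk summit near the Pgk-RA start. TATAAA, a core promoter motif, had 2 copies at Gapdh2 and 2 at Ldh, and 11.9% of IDR promoter summits held it. It is made of A and T alone, and 18.7% of the windows centred 150 bp upstream of TSSs held it. GAGAG, the core of the element bound by GAGA factor, was at 3 of the 9 summits, with 4 copies in the Pgk window near Pgk-RD, 2 at the intronic Eno summit and 1 at Pgk near Pgk-RA. The share over IDR promoter summits was 19.0%. None of the 9 windows held the DNA replication-related element TATCGATA (3.33% of IDR promoter summits) or the M1BP motif GGTCACAC (2.74%). The E-box CACGTG was absent too (1.61%). So was the hypoxia response core ACGTG (11.1%), which lies within that E-box. The sequence AAGGTCA, bound by ERR, was likewise at 0 of 9 (0.342%).

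The same motifs were counted per gene in windows from 250 bp upstream to 50 bp downstream of any TSS. GAGAG was found at all 5 bound glycolysis genes and at PyK among the 5 unbound. Its share was 58.0% of the 3607 genes with 2 to 5 TSSs and 62.4% of those of them that were bound. AAGGTCA was found at Pgk, Hex-A and Tpi, 3 of the 10 genes, against 4.27% of genes with 2 to 5 TSSs. GGAACG was found at Hex-A and Tpi (16.8% of genes with 2 to 5 TSSs), the first bound and the second unbound. ACGTG was found at Gapdh2, Pgk and Pgi (44.4%), and GGTCACAC at Gapdh1 (11.5%). TATAAA was found at Gapdh2 and Ldh among the bound genes and at Gapdh1, Pfk, Tpi and Pgi among the unbound (60.2%). A match is a description of the letters and no evidence of binding.

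Other genes of sugar metabolism, listed by function, were read in the same way, and 16 of 55 were bound (29.1%, beside 16.0% of all protein-coding genes). The share among genes with 2 to 5 TSSs was 27.9%, and these 55 were not sorted by number of TSSs. The other glycolytic enzymes and isozymes were mostly unbound, at 1 of 16. The bound one was Pfrx, which makes and breaks down the fructose 2,6-bisphosphate that activates phosphofructokinase, with a signal of 774 in replicate 1 and 825 in replicate 2 and a summit 69 bp downstream of its TSS. Its pooled signal of 1562 (rank 218) was above that of Gapdh2. Ald1, the aldolase gene, had a highest signal of 60.1 and 44.0 in replicates 1 and 2, and Pglym78, a phosphoglycerate mutase gene, 82.3 and 36.5. Neither was bound. Of the 16, 10 had no summit in the pooled list within 1 kb.

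Genes for the use of pyruvate and the glycerol phosphate shuttle were bound in 6 of 11 cases. The background was 16.0% of all protein-coding genes and 27.9% of those with 2 to 5 TSSs. Gpo1, the mitochondrial glycerol-3-phosphate oxidase gene, led the 6 bound genes with a signal of 242 in replicate 1 and 189 in replicate 2. The others were CG9399 (106 and 122), the pyruvate dehydrogenase complex genes muc (80.8 and 85.7) and Pdhb (75.1 and 62.7), the glycerol-3-phosphate dehydrogenase gene Gpdh1 (76.1 and 55.8), and the mitochondrial pyruvate carrier gene Mpc1 (71.4 and 68.4). The Mpc1 summit lay 501 bp from its TSS and nearer to CG42613. Pooled signals of Pdhb, Gpdh1 and Mpc1 were 137, 134 and 133, near the lowest IDR signal of 128. In the 1443 IDR peaks of highest signal, a shorter list, Pdhb, muc, Mpc1 and Gpdh1 were lost. Gpo1 was lost with 1 TSS per gene.

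Regulators of glycolytic genes were bound in 4 of 6 cases, beside 16.0% of all protein-coding genes. These were Mondo, a sugar sensor (100 in replicate 1 and 134 in replicate 2), its partner bigmax (67.7 and 69.3), sima, the hypoxia-inducible factor alpha subunit gene (136 in the pool), and the sugar-responsive factor gene sug (71.3 and 85.1). The Mondo summit lay 851 bp from its TSS and nearer to crc. ERR missed the list, with a highest pooled signal of 121 and 75.3 and 61.0 in replicates 1 and 2, as did tgo at 91.6 in the pool. Glyp, the glycogen phosphorylase gene (172 and 87.2), the glycogen branching enzyme gene AGBE (96.9 and 84.5) and sut1 (89.6 and 70.6) were bound among 11 genes of sugar transport, glycogen and trehalose. The sut1 summit was 712 bp from its TSS and nearer to slv. In the pentose phosphate list CG8036 (175 and 169) was the 1 bound of 6, and in gluconeogenesis PCB, the pyruvate carboxylase gene (64.6 and 92.1), was the 1 bound of 5. Some of these calls changed when the highest regions of 1 replicate replaced the IDR list, although the bound genes had summits in both replicate lists. Among the 2886 regions of highest signal in replicate 1, which marked 16.2% of protein-coding genes, PCB, Mpc1, bigmax and sug were not called, whereas ERR, Pglym78, Pepck1 and Pdk were. Among those of replicate 2 (15.3%), Gpdh1 and sima were not called, whereas Pepck2, Pgm1 and Treh were.

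**Figure D5:**
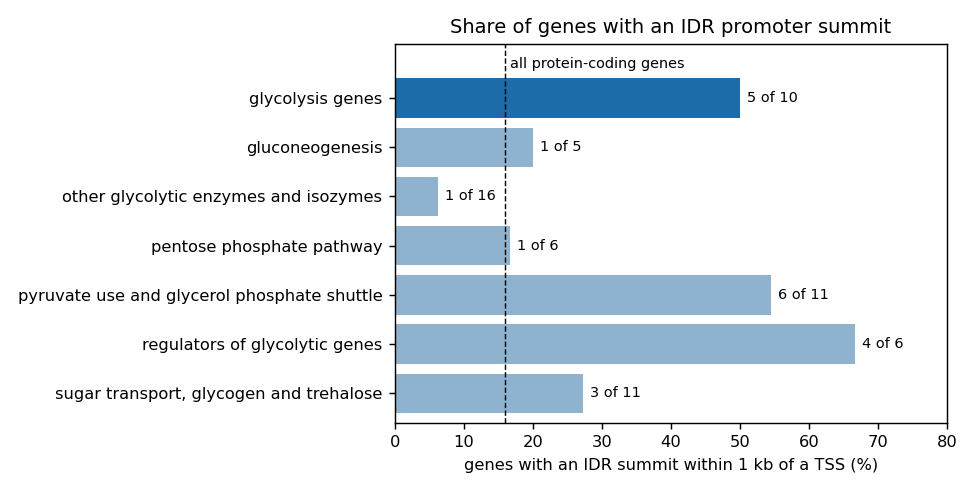
Bars give the share (%) of genes with an IDR summit within 1 kb of a TSS for the 10 glycolysis genes and 6 lists of related genes, with counts beside the bars and a dashed line at the share of all protein-coding genes (16.0%). Shares run from 1 of 16 for other glycolytic enzymes to 4 of 6 for regulators of glycolytic genes.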

How the data were processed

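The 4 peak lists are on dm6, per the labels. Per the deposited notes, each replicate list and the pooled list were made from that sample set's alignments and 1 shared control alignment, and the IDR list from these 3 lists. No source used here gives the aligner, the peak caller or the threshold. The signal value of each region was deposited by the authors, and its normalization is not stated in them. The −log10 q-value deposited by the authors was 3.95 at each of the 9 IDR summits and was not used further. Regions on Y were left out (2, 1 and 3 in the replicate 1, replicate 2 and pooled lists). The number of unmapped columns was 0.

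Summits were compared with the Ensembl release 115 annotation (BDGP6.54, dm6 coordinates), without transposable elements, and sequence came from RefSeq's copy of Release 6. All regions ended within the arm lengths of that copy. A replicate summit was matched to an IDR summit when nearest and within 200 bp. The region of highest signal within 1 kb of any TSS stood for a gene. Coordinates are 1-based. Python 3.11.15, pandas 2.3.3 and Biopython 1.88 were used, and the summit assignment was tested on simulated data. Members, lists and motifs were chosen with earlier results of these data known, so no set test was made. Named genes are the 10 glycolysis genes, bound genes of the related lists, genes that share a summit with them and the tagged gene. Ald1, Pglym78, Pepck1, Pepck2, Pdk, Pgm1, Treh, ERR, tgo, dmpd, lin, Polr3F, PolZ1, CG31937 and the genes nearer to a listed summit were named after their values were seen. Alternatives varied the TSS distance, the TSS set, the peak list, the overlap rule, the match distance and the motif window.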

Additional observations from a re-analysis of the deposited data

How the results depend on the processing

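The count of bound glycolysis genes was 5, and it was 4 to 5 when the top 2886 regions of a single replicate replaced the IDR list. Ldh was lost with replicate 2 alone, where its rank moved from 1926 to 3836, and in the 1443 IDR peaks of highest signal. Eno was lost with 1 TSS per gene. A TSS distance of 500 bp or 2 kb and an overlap of 1 bp gave 5. Bound genes of the related lists were 16 to 17 of 55 with 1 replicate, and all bound protein-coding genes 2139 to 2258. At a TSS distance of 500 bp, at 2 kb and with 1 TSS per gene, the related lists held 13, 19 and 14. All bound protein-coding genes were then 1942, 2681 and 2022. An overlap of 1 bp gave 18 in the related lists. In the 1443 highest peaks, a shorter list, the related lists fell from 16 to 6 and all protein-coding genes from 2225 to 1152. The related genes lost were PCB, Pdhb, muc, Mpc1, Gpdh1, sut1, AGBE, sima, bigmax and sug, whose IDR signals lay in the lower part of that list. The median rank of the highest summits of bound genes was 691, and 641 to 791 in the single replicates. The median replicate difference was 0.014 log2 after the median of all matched peaks was subtracted. GGAACG was found at 0 summits within 50 bp, at 0 with the summits of either replicate, and at 1 within 100 bp. No paired analysis was possible because both samples belong to 1 group. Read depth is unknown, so no interval or floor could be given for a signal or for the missing Tpi region in replicate 2.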

Other observations

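IDR summits near these genes but over 1 kb from their TSSs were read in a span of 3 kb around each gene, chosen after the data were examined. There were 4, each nearer to a start of another gene than to one of the glycolysis gene. Beside Gapdh2, a summit with a pooled signal of 522 (rank 519) lay in an intron of CG16952, 773 bp downstream of a CG16952 TSS and 2745 bp from the nearest Gapdh2 TSS. Beside Hex-A, a summit with a signal of 191 lay 1786 bp upstream of the Hex-A TSS and 288 bp upstream of lncRNA:CR45541. Beside Pfk, the summit with a signal of 144 was that of dmpd. Beside Pgk, a summit with a signal of 257 lay 1536 bp upstream of the outermost Pgk TSS, in an intron of Bacc and 1371 bp from a Bacc TSS.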
